A study of Mus musculus with 22 samples.

Results

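Transcripts of the glycolysis, lactate and pyruvate genes were followed along the pathway in sorted cortical microglia and astrocytes. The list holds 34 genes chosen by symbol, from glucose uptake to pyruvate entry into mitochondria and the glycerol phosphate shuttle. Of these, 31 had a probe among the 22485 genes measured, each taken at its probe with the highest mean over all 22 samples, and Gpi1, Eno1 and Mpc2 were not analysed here. All 31 had values in all samples, and 28 of 31 lay above the median gene of the table.

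The samples came from cortex of APPswe/PS1dE9 (APP/PS1) mice, which carry mutant human APP and presenilin 1 transgenes and deposit amyloid plaques, and from wild-type (WT) littermates. All mice were C57BL/6 and aged 15 to 18 months. Microglia were taken as CD11b+/CD45+ cells (7 APP/PS1 and 7 WT samples) and astrocytes as GLT1+/CD11b- cells (4 APP/PS1 and 4 WT samples), after removal of myelin, O4-positive cells and dead cells. Each dual-colour Agilent array paired an APP/PS1 sample with a WT sample of its own cell type and number. Neither the promoter of the transgenes nor any pooling of mice is stated in the labels.

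Glycolysis splits glucose into pyruvate with a small yield of ATP. Pyruvate is then either reduced to lactate, which leaves the cell through monocarboxylate transporters, or carried into mitochondria and oxidised by pyruvate dehydrogenase, an enzyme that the pyruvate dehydrogenase kinases switch off. In brain, astrocytes are known as glycolytic cells that release lactate, and activated microglia are known to raise glycolysis. Several steps are run by alternative isoforms, so that the isoform used says much about a cell type.

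Hypoxia-inducible factors bind the core ACGTG, and many glycolysis genes are textbook targets. The promoters of 4 genes that were higher in APP/PS1 microglia and hold this core are shown, in order of the size of that rise (RefSeq, GRCm38.p6, 250 bases before to 50 after the annotated start). Capitals mark ACGTG on either strand (CACGT is its reverse complement).
Slc2a1 promoter, chr4:119108495-119108794, plus strand: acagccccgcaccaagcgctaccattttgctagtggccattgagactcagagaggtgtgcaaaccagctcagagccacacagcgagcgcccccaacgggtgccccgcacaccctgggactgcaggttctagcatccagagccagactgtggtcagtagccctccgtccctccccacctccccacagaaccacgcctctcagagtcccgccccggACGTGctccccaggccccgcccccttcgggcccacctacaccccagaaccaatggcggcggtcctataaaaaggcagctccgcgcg
Slc16a3 promoter, chr11:120948817-120949116, plus strand: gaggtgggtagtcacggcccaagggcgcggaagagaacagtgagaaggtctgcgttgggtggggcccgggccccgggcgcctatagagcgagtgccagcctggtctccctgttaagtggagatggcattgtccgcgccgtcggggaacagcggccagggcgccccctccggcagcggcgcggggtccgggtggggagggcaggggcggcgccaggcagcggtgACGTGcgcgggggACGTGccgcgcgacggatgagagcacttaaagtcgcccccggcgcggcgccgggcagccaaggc
Pgk1 promoter, chrX:106186850-106187149, plus strand: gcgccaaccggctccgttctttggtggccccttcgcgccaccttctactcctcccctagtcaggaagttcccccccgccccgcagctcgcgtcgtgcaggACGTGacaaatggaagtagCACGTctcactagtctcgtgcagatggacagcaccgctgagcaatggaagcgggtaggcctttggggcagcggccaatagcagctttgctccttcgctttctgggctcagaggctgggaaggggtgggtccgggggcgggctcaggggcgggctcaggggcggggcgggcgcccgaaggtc
Pkm promoter, chr9:59656977-59657276, plus strand: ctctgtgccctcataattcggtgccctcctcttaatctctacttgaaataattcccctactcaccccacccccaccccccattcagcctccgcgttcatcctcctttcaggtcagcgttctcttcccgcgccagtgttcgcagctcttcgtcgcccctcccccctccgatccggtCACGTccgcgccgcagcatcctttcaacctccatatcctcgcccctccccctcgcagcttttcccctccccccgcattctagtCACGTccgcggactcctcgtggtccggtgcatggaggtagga
The core, searched on both strands and overlapping the CACGTG E-box, occurred in 19.6% of the 32851 windows of the table, and CACGTG in 7.15%. Of the 49 windows of the listed genes, 22 held the core. Counted by gene, with any window of the gene, it occurred in 21.8% of genes and in 18 of the 31 listed genes that have a window (58.1%). Of the listed genes higher in APP/PS1 microglia, 9 of 12 with a window held it, against 2 of 5 of those lower and 7 of 11 of those that did not pass the test. A match describes these letters and says nothing of whether a factor binds there.

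Values are log2 expression, so that a difference of 1 is 2-fold. The sample medians lay between 6.24 and 6.26 and the distributions were near identical, which hides any shift shared by all genes. The highest value in the table was 17.89, and no listed gene came within 0.5 of it. Astrocyte markers were higher in WT astrocytes than in WT microglia for 14 of 14 genes (median difference 8.03), and microglial markers were lower for 14 of 14 (median -8.70), as the labels have it. The astrocyte samples also held endothelial markers, at a mean of 12.25 to 13.18 in APP/PS1 and 11.28 to 12.20 in WT samples, and mural markers, at 11.38 to 13.25 in APP/PS1 and 9.28 to 11.51 in WT samples. In microglia samples these lists lay at 6.64 to 7.64 and 5.21 to 6.30. Eif2s3y, a Y-linked gene, differed between the samples of an array by over 2 on astrocyte arrays 1 and 3 and microglia arrays 1 and 7, so those pairs were not matched in Y-linked RNA. Differences within arrays were tested with limma, with p-values adjusted over all genes (Benjamini-Hochberg, two-sided) and 0.05 as the threshold.

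WT astrocytes and WT microglia differed in the levels of isoforms at most steps that have a choice. At some steps the isoforms went opposite ways, while both aldolases and both lactate dehydrogenase subunits were higher in astrocytes. Astrocytes were higher for Hk1, Pfkm, Pfkp, Aldoc, Pdk2, Pdk4 and the glucose transporter Slc2a1, and microglia for Hk2, Hk3, Pfkfb3, Slc16a3, Pdk1 and Slc2a3. Of the 31 genes, 20 were higher and 8 lower in astrocytes, against 53.2% of all genes called in this comparison (35.2% higher and 18.0% lower). The groups did not overlap for 28 of 31 genes, against 50.3% of genes measured on all arrays. The median difference of the 31 genes was 1.70, against 0.34 over all genes. All astrocyte arrays lay on 1 slide and the microglia arrays on the 2 others, so slide and cell type are confounded here and cannot be told apart.

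At uptake, Slc2a1 (GLUT1, the transporter of astrocytes and of the blood-brain barrier) was at 14.65, 14.84, 15.14 and 15.47 in the 4 WT astrocyte samples, against 10.54 to 11.70 (median 11.34) in the 7 WT microglia samples. Slc2a3 (GLUT3) was at 6.81, 7.02, 7.18 and 7.20 in WT astrocytes, against 7.46 to 9.13 (median 8.32) in WT microglia. Neither gene's groups overlapped. The difference was 3.83 ± 0.26 (SE) for Slc2a1 and -1.14 ± 0.29 for Slc2a3 (limma adjusted p = 8.43e-11 and 0.00225). The Slc2a3 call was lost with slide as a random block (-1.17, adjusted p = 0.113). Endothelial markers were higher too in the WT astrocyte samples, for 10 of 11 genes with 1 lower (median difference 5.49). Their part in the Slc2a1 difference was not tested.

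Hexokinase, which traps glucose in the cell, showed the clearest exchange of isoforms. Hk1 was at 13.85, 14.13, 14.14 and 14.21 in WT astrocytes, against 10.68 to 11.03 (median 10.97) in WT microglia. Hk2 was at 5.03, 5.06, 5.06 and 5.56 in WT astrocytes, against 11.07 to 12.03 (median 11.65) in WT microglia. Hk3, an isoform of myeloid cells, was at 3.17, 4.30, 4.51 and 4.66 in WT astrocytes, against 10.55 to 11.57 (median 11.03) in WT microglia. The groups were apart for all 3 isoforms, with differences of 3.19 ± 0.13, -6.39 ± 0.26 and -6.88 ± 0.27. The Hk2 and Hk3 values of astrocytes lie below 6.47, the median gene of the table.

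Phosphofructokinase, the committed step, is built from muscle (Pfkm), liver (Pfkl) and platelet (Pfkp) subunits. Pfkm was at 14.27, 14.46, 14.72 and 14.76 in WT astrocytes, against 8.33 to 8.92 (median 8.61) in WT microglia. Pfkp was at 10.14, 10.23, 10.54 and 10.79 in WT astrocytes, against 3.96 to 6.01 (median 5.35) in WT microglia. Pfkl was at 9.79, 9.90, 10.19 and 10.50 in WT astrocytes, against 9.58 to 10.03 (median 9.85) in WT microglia. Only Pfkl overlapped between the cell types, and its difference of 0.28 ± 0.14 did not pass (limma adjusted p = 0.104), while Pfkm differed by 5.94 ± 0.23 and Pfkp by 5.31 ± 0.38. Of the bifunctional enzymes that make and remove phosphofructokinase's activator, Pfkfb3 was lower in astrocytes by -2.09 ± 0.23 and Pfkfb2 was higher by 2.41 ± 0.39. Pfkfb4 differed by 0.25 ± 0.20, which did not pass. The dimmer Pfkfb4 probe, at a mean of 3.72, was higher in astrocytes (1.40, limma adjusted p = 0.0235), as was the mean of both probes (0.83, adjusted p = 0.0209).

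From aldolase to pyruvate kinase, each measured gene but Eno3 was higher in WT astrocytes. Aldoc, the brain aldolase and a classical astrocyte gene, was at 16.89, 16.92, 17.02 and 17.12 in WT astrocytes, against 10.62 to 11.75 (median 11.26) in WT microglia, a difference of 5.74 ± 0.36. The widely expressed Aldoa differed by 1.78 ± 0.12. Tpi1, Gapdh, Pgk1, Pgam1 and Pkm, each the main or only gene of its step in most tissues, differed by 1.19 to 2.42. Eno3, the muscle enolase, was lower in astrocytes by -0.85 ± 0.14.

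At the pyruvate branch, both lactate dehydrogenase subunits were higher in WT astrocytes, Ldha by 1.42 ± 0.11 and Ldhb by 1.68 ± 0.24. Dimmer Ldha probes differed by 0.63 (limma adjusted p = 0.0158) and by 0.40, which did not pass (adjusted p = 0.0514). Slc16a3 (MCT4, a lactate exporter of glycolytic cells) was at 6.72, 6.83, 6.89 and 6.89 in WT astrocytes, against 10.59 to 11.60 (median 11.03) in WT microglia, a difference of -4.19 ± 0.29 with no overlap. Slc16a1 (MCT1) differed by -0.16 ± 0.17, which did not pass, and Slc16a7 (MCT2) by -0.98 ± 0.30, a call lost with slide as a random block (adjusted p = 0.116). Pdk4 was at 10.67, 10.72, 10.76 and 10.87 in WT astrocytes, against 2.86 to 4.89 (median 3.89) in WT microglia. Pdk2 was at 11.79, 11.84, 12.17 and 12.38 in WT astrocytes, against 7.81 to 8.49 (median 8.28) in WT microglia. Pdk1 ran the other way, at 6.32, 6.33, 6.36 and 6.52 in WT astrocytes, against 8.67 to 9.56 (median 9.17) in WT microglia. None of these 3 kinase isoforms overlapped between the cell types, the differences being 6.94 ± 0.27, 3.88 ± 0.19 and -2.73 ± 0.16. Pdk3, a kinase outside the list and singled out after its values were seen, was lower in WT astrocytes by -0.84 ± 0.21 with overlapping groups. Pdha1, a catalytic subunit gene of pyruvate dehydrogenase, Mpc1, a subunit of the mitochondrial pyruvate carrier, and the glycerol phosphate dehydrogenases Gpd1 (cytosolic) and Gpd2 (mitochondrial) were higher in astrocytes by 2.16, 1.54, 2.09 and 4.00.

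**Figure D1:**
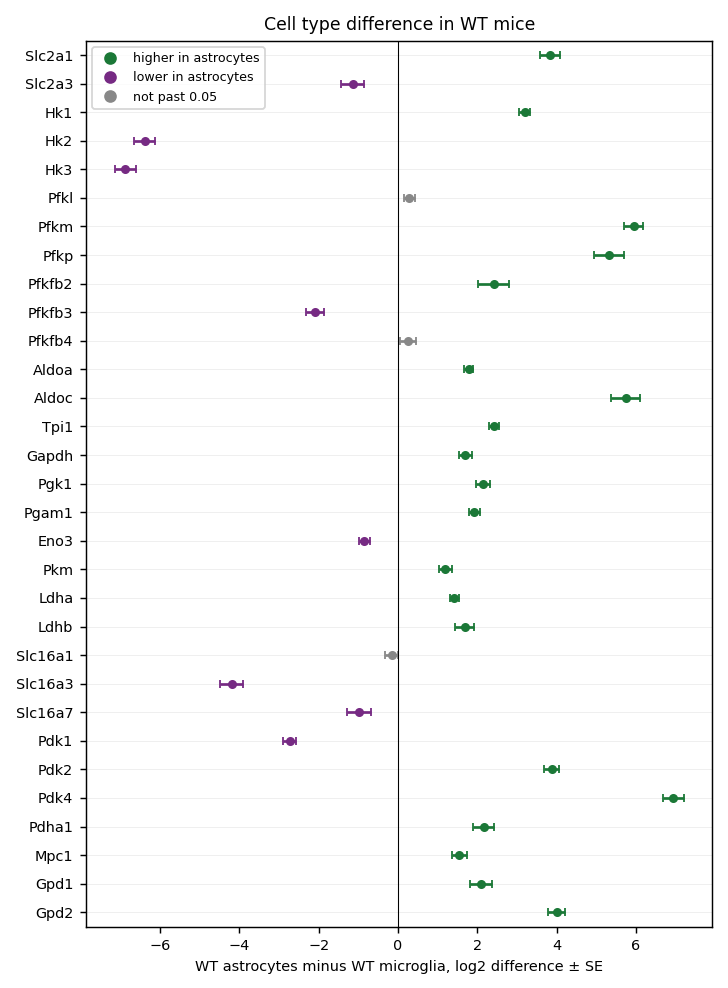
Fitted log2 difference, WT astrocytes (n = 4) minus WT microglia (n = 7), for the 31 genes in pathway order, with bars of 1 standard error. Hk2 (-6.39) and Hk3 (-6.88) lie at the left end and Pdk4 (6.94) and Pfkm (5.94) at the right end.

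In microglia, the glucose transporters Slc2a1 and Slc2a3, the lactate exporter Slc16a3 and the enzyme genes Pfkl, Aldoa, Tpi1, Gapdh, Pgk1, Pgam1, Pkm and Ldha were higher in APP/PS1 mice. Slc2a1 rose 4.92-fold, Slc16a3 4.14-fold and Slc2a3 3.58-fold. Genes for triose phosphates and the ATP-yielding steps rose by up to 2.78-fold, while Hk1, Aldoc, Ldhb, Eno3, Pfkfb4 and Gpd1 fell. Of the 31 genes, 13 rose and 6 fell, against 19.7% of all genes called in microglia (8.27% higher and 11.4% lower). The groups did not overlap for 15 of 31, against 4.40% of genes measured on all arrays. The median difference of the 31 was 0.22, against -0.04 over all genes.

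Slc2a1 was at 12.95 to 13.77 (median 13.59) in APP/PS1 microglia, against 10.54 to 11.70 (median 11.34) in WT microglia. Slc2a3 was at 9.32 to 10.35 (median 10.16) in APP/PS1 microglia, against 7.46 to 9.13 (median 8.32) in WT microglia. The groups were apart for both, and the difference was positive on 7 of 7 arrays for each, 2.30 ± 0.17 for Slc2a1 and 1.84 ± 0.16 for Slc2a3 (limma adjusted p = 1.86e-05 and 6.09e-05). With only the 4 microglia arrays of one slide or the 3 of the other, fitted beside the astrocyte arrays, Slc2a1 differed by 2.22 and 2.45.

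Of the hexokinases, Hk1 fell and the other two did not pass. Hk2, often taken as the inducible isoform, was at 11.10 to 11.98 (median 11.60) in APP/PS1 microglia, against 11.07 to 12.03 (median 11.65) in WT microglia, a difference of -0.03 ± 0.16 (limma adjusted p = 0.916). Hk1 was at 10.32 to 10.67 (median 10.55) in APP/PS1 microglia, against 10.68 to 11.03 (median 10.97) in WT microglia, a fall of -0.37 ± 0.07 on 7 of 7 arrays (adjusted p = 0.00574). Its dimmer probe did not pass (-0.02), and with the mean of both probes the call was lost (-0.20, adjusted p = 0.103). Hk3 was lower on 7 of 7 arrays but did not pass (-0.41 ± 0.16, adjusted p = 0.106).

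Among phosphofructokinase subunits, Pfkl was at 10.25 to 10.99 (median 10.67) in APP/PS1 microglia, against 9.58 to 10.03 (median 9.85) in WT microglia. It rose by 0.84 ± 0.06 on 7 of 7 arrays with no overlap (limma adjusted p = 1.61e-05). Pfkm differed by -0.32 ± 0.13 and Pfkp by 0.00 ± 0.21, and neither passed. Pfkfb3, a strong producer of the activator, was at 13.19 to 13.85 (median 13.71) in APP/PS1 microglia, against 12.70 to 13.76 (median 13.26) in WT microglia, and these ranges overlapped (0.34 ± 0.13, adjusted p = 0.109). Pfkfb4 was at 10.66 to 11.22 (median 11.04) in APP/PS1 microglia, against 11.34 to 11.80 (median 11.67) in WT microglia, a fall of -0.56 ± 0.11. The dimmer Pfkfb4 probe did not pass (-0.22, limma adjusted p = 0.435). Pfkfb2 differed by 0.20 ± 0.13 and did not pass.

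The steps from aldolase to pyruvate kinase rose apart from Aldoc and Eno3. Tpi1, which interconverts the triose phosphates, was at 13.31 to 13.96 (median 13.59) in APP/PS1 microglia, against 12.03 to 12.43 (median 12.26) in WT microglia. Pgk1, the first ATP-yielding enzyme, was at 12.78 to 13.29 (median 13.05) in APP/PS1 microglia, against 11.09 to 11.98 (median 11.69) in WT microglia. Both were far apart between the genotypes, with differences of 1.37 ± 0.07 and 1.47 ± 0.11 (limma adjusted p = 2.87e-06 and 1.68e-05).
Gapdh, which is often used as a loading control, was at 15.47 to 15.73 (median 15.63) in APP/PS1 microglia, against 14.62 to 15.02 (median 14.85) in WT microglia. Its rise of 0.75 ± 0.09 was positive on 7 of 7 arrays, and 7 of 7 Gapdh probes rose, by 0.45 to 0.88. Aldoa was at 15.35 to 15.82 (median 15.57) in APP/PS1 microglia, against 14.54 to 15.10 (median 14.81) in WT microglia. Pgam1 was at 13.44 to 13.87 (median 13.72) in APP/PS1 microglia, against 12.56 to 13.08 (median 12.85) in WT microglia. Pkm, which makes pyruvate, was at 12.73 to 13.15 (median 12.98) in APP/PS1 microglia, against 11.63 to 12.31 (median 12.02) in WT microglia. None of these 3 overlapped between genotypes, and they rose by 0.75 ± 0.06, 0.82 ± 0.08 and 0.96 ± 0.09. Aldoc was at 9.77 to 10.84 (median 10.44) in APP/PS1 microglia, against 10.62 to 11.75 (median 11.26) in WT microglia. These ranges overlapped, and the fall of -0.82 ± 0.22 (adjusted p = 0.0243) lost its call without replicate 2, 4 or 6 (adjusted p = 0.0686, 0.0807 and 0.0698). Eno3 fell by -0.42 ± 0.06 on 7 of 7 arrays.

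The lactate dehydrogenase subunits moved apart. Ldha, the subunit that favours lactate formation, was at 14.25 to 14.63 (median 14.37) in APP/PS1 microglia, against 13.38 to 13.92 (median 13.75) in WT microglia, a rise of 0.70 ± 0.06. Ldhb was at 13.09 to 13.51 (median 13.33) in APP/PS1 microglia, against 13.80 to 14.42 (median 14.15) in WT microglia, a fall of -0.80 ± 0.15. Neither overlapped between genotypes and both kept their sign on 7 of 7 arrays (limma adjusted p = 3.21e-05 and 0.00468). Slc16a3 was at 12.65 to 13.34 (median 13.19) in APP/PS1 microglia, against 10.59 to 11.60 (median 11.03) in WT microglia, a rise of 2.05 ± 0.18 with no overlap. Slc16a1 and Slc16a7 differed by 0.22 ± 0.08 and 0.27 ± 0.11 and did not pass.

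Among the genes of pyruvate entry into mitochondria, Pdk1 passed. This gene, a hypoxia-inducible kinase, was at 8.98 to 9.66 (median 9.46) in APP/PS1 microglia, against 8.67 to 9.56 (median 9.17) in WT microglia. The ranges overlapped, and the rise of 0.29 ± 0.08 (limma adjusted p = 0.0328) lost its call without any one of replicates 1 to 6 (adjusted p up to 0.0817). Pdk2, Pdk4, Pdha1 and Mpc1 differed by -0.22 to 0.21 and did not pass. In the glycerol phosphate shuttle the enzymes went opposite ways. Gpd1 was at 8.85 to 9.52 (median 9.11) in APP/PS1 microglia, against 10.03 to 10.60 (median 10.13) in WT microglia, a fall of -1.05 ± 0.14 with no overlap. Gpd2 was at 6.18 to 7.45 (median 6.88) in APP/PS1 microglia, against 5.30 to 6.72 (median 6.45) in WT microglia, which overlap, yet it was higher on 7 of 7 arrays (0.75 ± 0.07).

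With the microglia arrays of 1 slide at a time (arrays 2 to 5, or arrays 1, 6 and 7), the 19 called genes kept their sign. Tpi1, for example, was at 1.32 and 1.44 and Pgk1 at 1.39 and 1.6. These fits kept all astrocyte arrays, which shared in the estimates of spread and dye effect. Hk1, Pfkfb4, Aldoc, Eno3, Ldhb and Pdk1 did not pass within either slide, and Gapdh, Pgam1 and Gpd1 not within the second (limma adjusted p = 0.0999, 0.0554 and 0.142).

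Astrocyte markers also fell in the microglia samples, 7 of 14 with 1 higher and a median of -0.79, their mean lying at 5.73 to 6.71 in APP/PS1 and 6.27 to 7.45 in WT microglia. Microglial markers fell for 6 of 14, with 2 higher, at 14.85 to 15.02 in APP/PS1 and 15.17 to 15.63 in WT microglia. Perivascular macrophage and monocyte markers fell for 6 of 8. Neuronal markers fell for 7 of 14 with 0 higher (median -0.40), their mean lying at 5.27 to 6.17 in APP/PS1 and 6.18 to 6.76 in WT microglia. The part of these shifts in the falls of Aldoc, Gpd1, Ldhb and Hk1, which were higher in WT astrocytes by 5.74, 2.09, 1.68 and 3.19, was not tested, and that contrast shares the WT microglia samples with this one.

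**Figure D2:**
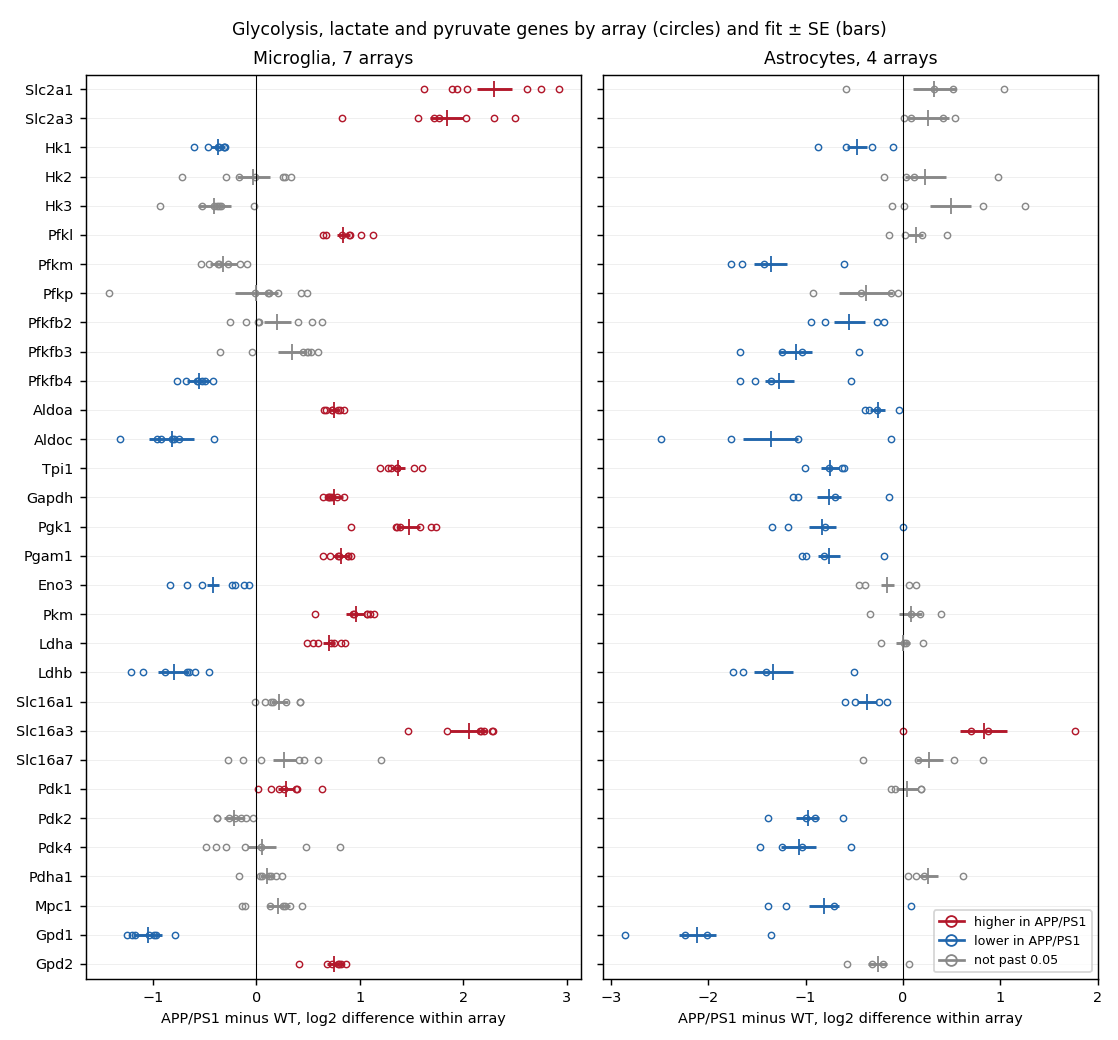
Log2 difference, APP/PS1 minus WT, within each array (circles) and as fitted with 1 standard error (bars), for microglia (7 arrays, left) and astrocytes (4 arrays, right) in pathway order. Slc2a1, Slc2a3 and Slc16a3 lie farthest to the right in microglia, and Gpd1 farthest to the left in astrocytes.

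In astrocytes, the pathway was mostly lower in APP/PS1 mice. Of the 31 genes, 17 fell and 1, Slc16a3, rose, against 33.4% of all genes called in astrocytes (18.0% lower and 15.4% higher). Gpd1 fell 4.33-fold, Pfkm and Aldoc 2.57-fold, Ldhb 2.51-fold and Pfkfb4 2.41-fold. The groups did not overlap for 13 of 31, against 20.6% of genes measured on all arrays, and the median difference was -0.38, against -0.07 over all genes.

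Markers moved with these falls. Astrocyte markers fell for 13 of 14 genes (median -1.36), Gfap being the 1 that rose, and their mean lay at 12.35 to 14.13 in APP/PS1 and 14.27 to 14.56 in WT astrocytes. Microglial markers rose for 12 of 14 (median 1.68, mean 8.23 to 10.65 in APP/PS1 and 6.65 to 8.28 in WT astrocytes), endothelial markers for 10 of 11 and mural markers for 7 of 9. By array, the median astrocyte marker differed by -2.15, -1.55, -0.35 and -1.64 on arrays 1 to 4, and the median of the 31 genes by -0.58, -0.43, -0.14 and -0.45. With astrocytes fitted alone, 9 of the 31 genes passed, where 2820 of all genes passed, against 7516 in the main fit. On the arrays matched in Eif2s3y the falls of Pfkfb2, Aldoa and Slc16a1 did not pass (limma adjusted p = 0.16, 0.106 and 0.136). The part of cell makeup in the falls was not tested, and in bulk samples fewer cells of a type and less RNA per cell cannot be told apart.

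At uptake and hexokinase, Hk1 fell. Slc2a1 was at 14.89, 15.46, 15.35 and 15.69 in APP/PS1 astrocytes, against 15.47, 15.14, 14.84 and 14.65 in WT astrocytes, in the order of the arrays. It overlapped between genotypes and did not pass (0.32 ± 0.22, limma adjusted p = 0.311). The part of the rise of endothelial markers (10 of 11 genes) in the Slc2a1 values was not tested. Slc2a3 (0.26 ± 0.21), Hk2 (0.23 ± 0.21) and Hk3 (0.49 ± 0.21) did not pass either. Hk1 was at 13.55, 13.34, 14.04 and 13.53 in APP/PS1 astrocytes, against 14.13, 14.21, 14.14 and 13.85 in WT astrocytes, and fell by -0.47 ± 0.10 (adjusted p = 0.00425) with overlapping groups. Here too the dimmer Hk1 probe did not pass (0.04), and the mean of both probes lost the call (-0.22, adjusted p = 0.128).

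At the committed step, Pfkm and the bifunctional enzymes Pfkfb2, Pfkfb3 and Pfkfb4 fell. Pfkm was at 12.49, 13.11, 14.11 and 13.04 in APP/PS1 astrocytes, against 14.27, 14.76, 14.72 and 14.46 in WT astrocytes. Every APP/PS1 value lay below every WT value, with a difference of -1.36 ± 0.17 (limma adjusted p = 0.000351), and 10 of 10 Pfkm probes fell, by -1.27 to -1.39. Pfkfb3 was at 10, 9.80, 10.76 and 9.72 in APP/PS1 astrocytes, against 11.04, 11.48, 11.22 and 10.95 in WT astrocytes (-1.10 ± 0.17). Pfkfb4 was at 10.11, 10.79, 11.31 and 10.18 in APP/PS1 astrocytes, against 11.79, 12.15, 11.84 and 11.69 in WT astrocytes (-1.27 ± 0.15). Neither overlapped. Pfkfb2 fell by -0.55 ± 0.16, a call lost without replicate 1 or 4 (adjusted p = 0.123 and 0.133). Pfkl differed by 0.13 ± 0.08 and Pfkp by -0.38 ± 0.28, and neither passed. The dimmer Pfkp probe was lower (-0.86, limma adjusted p = 0.0257), as was the mean of both probes (-0.62, adjusted p = 0.0405).

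From aldolase to phosphoglycerate mutase the genes were lower. Aldoc was at 14.54, 15.16, 16.77 and 16.04 in APP/PS1 astrocytes, against 17.02, 16.92, 16.89 and 17.12 in WT astrocytes. The WT values lay close together and above all APP/PS1 values, but array 3 differed by only -0.12, and the fitted fall was -1.36 ± 0.28 (limma adjusted p = 0.0048). Tpi1 was at 13.82, 13.75, 14.16 and 13.86 in APP/PS1 astrocytes, against 14.43, 14.76, 14.79 and 14.63 in WT astrocytes. Gapdh was at 15.39, 15.45, 16.31 and 16.03 in APP/PS1 astrocytes, against 16.52, 16.53, 16.45 and 16.73 in WT astrocytes. Neither overlapped, and they fell by -0.75 ± 0.09 and -0.76 ± 0.12 (adjusted p = 0.00038 and 0.00129), with 7 of 7 Gapdh probes lower. A dimmer Tpi1 probe did not pass (-0.30).
Pgk1 was at 12.61, 12.76, 13.29 and 12.98 in APP/PS1 astrocytes, against 13.79, 14.11, 13.29 and 13.78 in WT astrocytes, and fell by -0.83 ± 0.14 on 3 of 4 arrays with overlap. Pgam1 was at 13.75, 13.90, 14.41 and 14.04 in APP/PS1 astrocytes, against 14.75, 14.94, 14.60 and 14.85 in WT astrocytes, a fall of -0.76 ± 0.11 with no overlap. Aldoa fell by -0.26 ± 0.08, a call lost without replicate 1, 2 or 4 (adjusted p = 0.098, 0.0682 and 0.115). Pkm (0.08 ± 0.12) and Eno3 (-0.16 ± 0.07) did not pass.

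At the pyruvate branch, Ldhb and 2 pyruvate dehydrogenase kinases fell. Ldhb was at 13.86, 14.44, 15.37 and 14.26 in APP/PS1 astrocytes, against 15.61, 15.85, 15.87 and 15.90 in WT astrocytes, apart by -1.33 ± 0.20 (limma adjusted p = 0.000844). Ldha was at 15.19, 15.04, 15.16 and 15.21 in APP/PS1 astrocytes, against 15.18, 15.27, 14.95 and 15.18 in WT astrocytes, a difference of 0.00 ± 0.07. Another Ldha probe was higher (0.51), so the probes disagree there. Pdk4 was at 9.42, 9.72, 10.19 and 9.40 in APP/PS1 astrocytes, against 10.67, 10.76, 10.72 and 10.87 in WT astrocytes. Pdk2 was at 10.79, 10.78, 11.76 and 10.94 in APP/PS1 astrocytes, against 11.79, 12.17, 12.38 and 11.84 in WT astrocytes. No APP/PS1 sample of these kinases reached a WT sample, and they fell by -1.07 ± 0.18 and -0.98 ± 0.12. Mpc1 was at 13.17, 13.58, 14.27 and 13.60 in APP/PS1 astrocytes, against 14.56, 14.77, 14.19 and 14.32 in WT astrocytes, a fall of -0.81 ± 0.15 on 3 of 4 arrays with overlap. Pdha1 (0.26 ± 0.10) and Pdk1 (0.04 ± 0.11) did not pass.

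Slc16a3 was the 1 gene that rose, at 8.66, 7.41, 6.89 and 7.70 in APP/PS1 astrocytes, against 6.89, 6.72, 6.89 and 6.83 in WT astrocytes. The lowest APP/PS1 and the highest WT value were equal to 2 decimals. Its difference of 0.83 ± 0.24 (limma adjusted p = 0.0227) was 0.50 without replicate 1 (adjusted p = 0.107) and lost its call without replicate 2 or 4 as well (adjusted p = 0.0528 and 0.0756). The median microglial marker rose by 3.29, 1.75, 1.85 and 0.19 on arrays 1 to 4, where Slc16a3 differed by 1.77, 0.70, 0.00 and 0.87. The part of microglial RNA was not tested. Slc16a1 fell by -0.37 ± 0.10, a call lost without replicate 1 or 2 (adjusted p = 0.0737 and 0.0923). Slc16a7 differed by 0.27 ± 0.14 and did not pass. The dimmer Slc16a7 probe was higher (0.89, adjusted p = 0.0308), as was the mean of both probes (0.58, adjusted p = 0.0167). Gpd1 was at 9.14, 10.33, 11.32 and 10.01 in APP/PS1 astrocytes, against 11.99, 12.57, 12.68 and 12.01 in WT astrocytes, the largest fall among the 31 genes in astrocytes (-2.11 ± 0.19, adjusted p = 0.000125). Gpd2 differed by -0.26 ± 0.10 and did not pass.

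**Figure D3:**
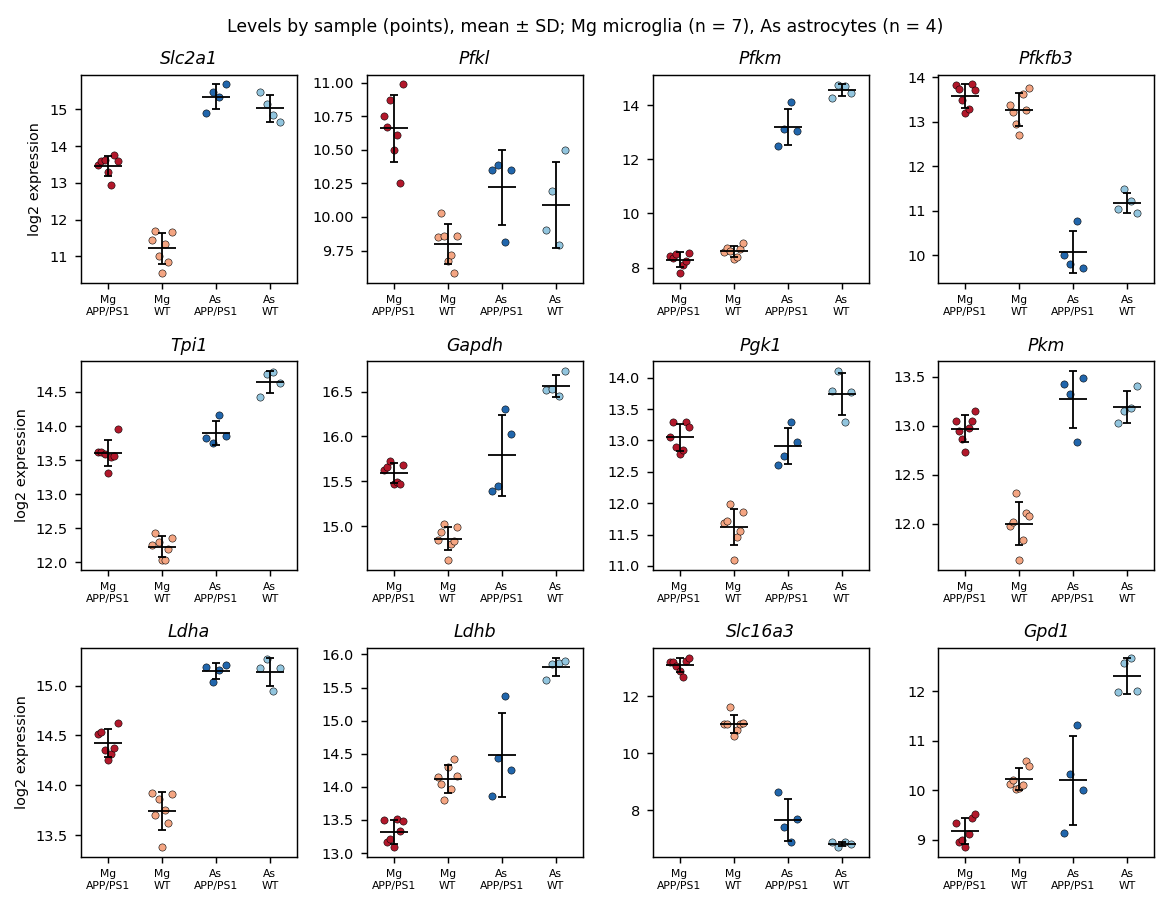
Log2 expression of 12 genes by sample (points) with mean and SD, for APP/PS1 and WT microglia (n = 7 each) and APP/PS1 and WT astrocytes (n = 4 each). Tpi1, Gapdh and Pgk1 are higher in APP/PS1 microglia and lower in APP/PS1 astrocytes, each beside its WT group.

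The genotype effect measured in the samples differed between the cell types for most of the pathway. The difference of effects, astrocytes minus microglia, passed for 22 of 31 genes, 21 of them more negative in astrocytes, against 26.6% of all genes (13.2% more negative and 13.4% more positive). Its median was -0.76, against -0.03 over all genes. The gap was widest for Pgk1 (-2.30 ± 0.18), Tpi1 (-2.12 ± 0.12), Slc2a1 (-1.98 ± 0.28), Slc2a3 (-1.58 ± 0.27), Pgam1 (-1.58 ± 0.13), Gapdh (-1.51 ± 0.16), Pfkfb3 (-1.44 ± 0.22) and Slc16a3 (-1.21 ± 0.30), with limma adjusted p between 1.75e-05 and 0.0145. The Slc16a3 difference lost its call without astrocyte replicate 2 (-1.14, adjusted p = 0.0535) and with the microglia arrays of either slide alone (-1.11 and -1.29, adjusted p = 0.101 and 0.0828). That of Slc2a3 lost its call on the arrays matched in Eif2s3y (-1.54, adjusted p = 0.0523). In this contrast 12 of 14 microglial, 7 of 9 mural and 5 of 11 endothelial markers were more positive in astrocytes. More negative were 4 of 14 astrocyte markers and 1 endothelial marker. The part of cell makeup in the difference of effects was not tested.

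Read gene by gene, 5 genes rose in microglia and fell in astrocytes, namely Aldoa, Tpi1, Gapdh, Pgk1 and Pgam1, which are consecutive steps of the pathway. They were 5 of the 13 that rose in microglia and 5 of the 17 that fell in astrocytes, and 1.75% of all genes had this pair of calls. With astrocytes fitted alone, Tpi1 kept its astrocyte call, while Aldoa, Gapdh, Pgk1 and Pgam1 did not pass (limma adjusted p = 0.225, 0.0504, 0.0583 and 0.0533). Another 5 fell in both, namely Hk1, Pfkfb4, Aldoc, Ldhb and Gpd1, against 3.75% of all genes, and Slc16a3 rose in both, against 2.67%. No listed gene fell in microglia and rose in astrocytes, against 2.20% of all genes. For Ldhb, Aldoc and Hk1 the difference of effects did not pass (-0.52 ± 0.25, -0.54 ± 0.36 and -0.10 ± 0.12). Hk3 was the 1 gene with a more positive effect in astrocytes (0.90 ± 0.26, adjusted p = 0.0289), a call lost without astrocyte replicate 1 or 3 or microglia replicate 2 or 6 (adjusted p = 0.103, 0.0721, 0.0526 and 0.052). It was 0.39 on the arrays matched in Eif2s3y (adjusted p = 0.296). Hk3 lay at 4.31 to 5.34 in APP/PS1 and 3.17 to 4.66 in WT astrocytes, below 6.47, the median gene of the table. Microglial markers rose for 12 of 14 genes, with 1 lower, in APP/PS1 astrocytes, and the part of microglial RNA in the Hk3 values was not tested. Between APP/PS1 astrocytes and APP/PS1 microglia, Gapdh, Pkm, Tpi1 and Pgam1 differed by 0.19, 0.30, 0.30 and 0.34 and did not pass, whereas in WT mice they were higher in astrocytes by 1.70, 1.19, 2.42 and 1.92.

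**Figure D4:**
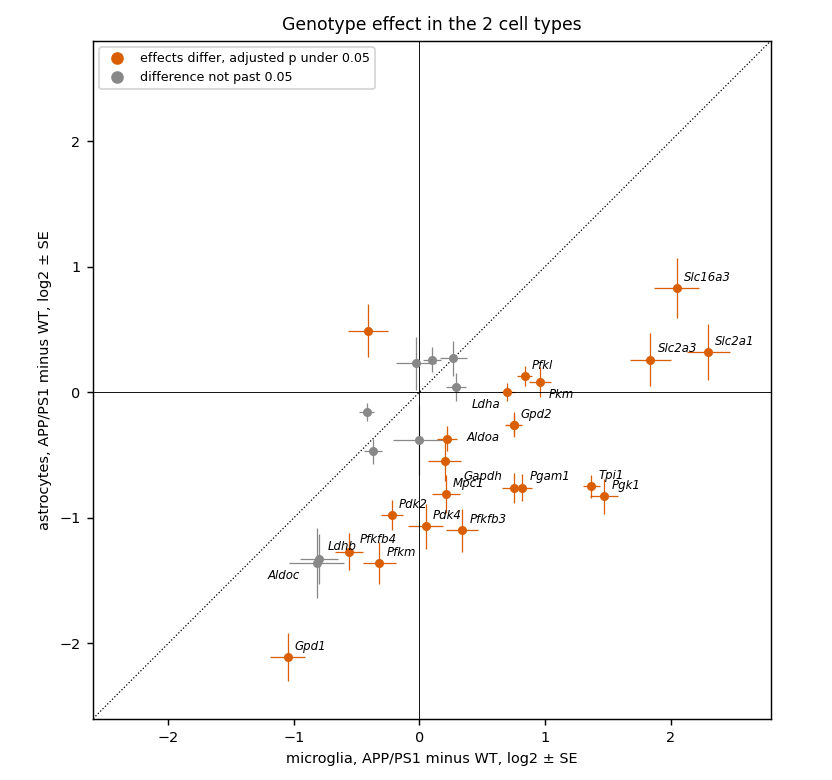
Genotype effect in astrocytes (vertical) against microglia (horizontal), log2 APP/PS1 minus WT with standard errors, for the 31 genes. Most points lie below the dotted line of equal effects, with Pgk1 and Tpi1 at lower right and Gpd1 at lower left.

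Isoform balances, the log2 difference of 2 genes within a sample, leave out a shift shared by both genes but not one in cell makeup. They carry no test, and since 2 probes differ in brightness, only their shifts between groups can be read. The Ldhb minus Ldha balance lay at -1.37 to -0.80 in APP/PS1 and -0.05 to 0.91 in WT microglia, and at -1.33 to 0.22 in APP/PS1 and 0.43 to 0.93 in WT astrocytes. It was lower in APP/PS1 on 7 of 7 microglia arrays (median -1.40) and 4 of 4 astrocyte arrays (median -1.43). The genotypes did not overlap in either cell type, and the direction was toward Ldha in both.
Other balances were also lower in APP/PS1 on every array, namely Aldoc minus Aldoa (median -1.65 in microglia and -1.09 in astrocytes), Pfkm minus Pfkl (-1.13 and -1.57) and Slc16a1 minus Slc16a3 (-1.99 and -1.21). Pdk2 minus Pdk1 (-0.52 and -1.0) and Pfkp minus Pfkl (-0.79 and -0.60) were lower on all 11 arrays too. In astrocytes the genotypes overlapped for each of these 5 balances, and in microglia for Pfkp minus Pfkl. Hk1 minus Hk2 was lower on 6 of 7 microglia arrays (median -0.31) and 4 of 4 astrocyte arrays (median -0.52), with overlap in both cell types. In WT mice these balances were higher in astrocytes than in microglia, by 9.58 for Hk1 minus Hk2, 3.94 for Aldoc minus Aldoa, 5.65 for Pfkm minus Pfkl, 4.02 for Slc16a1 minus Slc16a3 and 0.28 for Ldhb minus Ldha, whose ranges overlapped. Slc2a3 minus Slc2a1 had no common direction, being lower on 6 of 7 microglia arrays and 2 of 4 astrocyte arrays. Pfkp in microglia (up to 6.01) and Hk2 in astrocytes (up to 6.00) lay below 6.47, the median gene of the table. Their balances in those cells rest on low values. Cell type markers shifted in the same samples. In astrocyte samples the median marker difference by genotype was -1.36 for the astrocyte list and 1.68 for the microglial list. In microglia samples it was -0.79 and -0.59. The part of cell makeup in the balances was not tested.

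**Figure D5:**
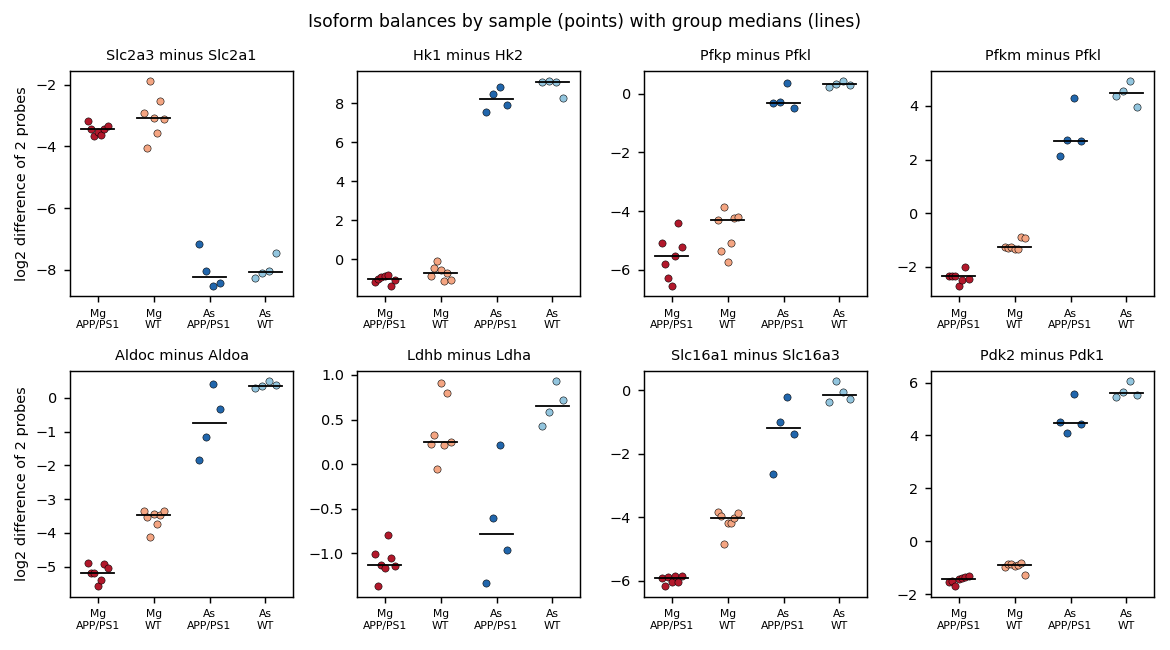
Log2 difference of 2 isoform probes within each sample (points) with group medians (lines), for APP/PS1 and WT microglia and APP/PS1 and WT astrocytes. The Ldhb minus Ldha balance has medians of -1.13 and -0.78 in the APP/PS1 groups and 0.25 and 0.65 in the WT groups.

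Genes around the pathway moved in both directions. Of 55 measured genes in 6 lists of other isoforms, gluconeogenesis, other lactate transport, the pyruvate dehydrogenase complex and its regulators, the pentose phosphate pathway and transcriptional or energy regulators, 7 rose and 7 fell in microglia and 12 rose and 9 fell in astrocytes, which is 25.5% and 38.2%, against 19.7% and 33.4% of all genes. In microglia the glucose transporter gene Slc2a6 rose by 2.66 ± 0.16, Tigar, a fructose bisphosphatase, by 1.11 ± 0.14, and Hif1a, the hypoxia-inducible factor subunit, by 1.85 ± 0.11 (limma adjusted p = 5.11e-06). The fructose transporter Slc2a5 fell by -1.19 ± 0.25. Txnip, an inhibitor of glucose uptake, fell by -1.18 ± 0.10 in microglia and rose by 1.34 ± 0.14 in astrocytes, and the effects differed by 2.52 ± 0.17 (adjusted p = 4.85e-05).

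The pentose phosphate pathway, which makes NADPH from glucose, had 2 of 8 genes lower in APP/PS1 microglia, H6pd (-0.50 ± 0.07) and Taldo1 (-0.40 ± 0.07), and the other 6 did not pass. In astrocytes Tkt, its transketolase, fell by -1.33 ± 0.18 and H6pd rose by 0.77 ± 0.10. Bsg, the chaperone of the lactate transporters, rose in both cell types, by 0.59 ± 0.14 in microglia and 1.17 ± 0.18 in astrocytes. Endothelial markers rose in the same astrocyte samples (10 of 11 genes, median 1.12), and their part in the Bsg rise was not tested. The 6 gluconeogenesis genes differed by -0.32 to 0.13 in microglia and did not pass. In astrocytes Pcx (pyruvate carboxylase, an astrocyte enzyme) fell by -1.03 ± 0.15, G6pc3 by -1.02 ± 0.08, and Pck2 rose by 0.82 ± 0.11. Among other genes of the pyruvate dehydrogenase complex and its regulators in astrocytes, the subunit gene Pdhx fell by -0.87 ± 0.12, the subunit gene Pdhb by -0.61 ± 0.08, and the kinase Pdk3 rose by 0.67 ± 0.12.
Eno1b, a near-identical copy of Eno1 that is outside the list and was singled out after its values were seen, differed by 0.32 ± 0.12 in microglia (adjusted p = 0.0843) and fell by -1.18 ± 0.15 in astrocytes. This is the brighter of 2 Eno1b probes. The dimmer was higher in microglia (0.59 ± 0.16, adjusted p = 0.0328 among probes) and lower in astrocytes (-0.77 ± 0.21), so the probes disagree in whether microglia passed. Which of the 2 enolase genes they measured was not tested.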

How the data were processed

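The values are log2 expression, 1 per probe and sample, as deposited by the authors in a table of 22 columns from 11 arrays on 3 slides. Per the submitters' processing notes limma was used, with no version. Which background correction and normalization were run is not given in the sources used here. Precision is limited by the number of arrays. Of 43020 probes, 33026 have 1 gene symbol, 0 several and 9994 none. Microglia samples had values for 32045 to 40771 probes, astrocyte samples for 42427 to 42869.

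R 4.3.3 (limma 3.58.1, statmod 1.5.0) and Python 3.11.15 (pandas 2.3.3, numpy 2.4.6, matplotlib 3.10.9) were used. A single limma model held the 22 samples, with terms for array (block), dye and the genotype effect of each cell type, so both cell types share 1 estimate of the spread. WT astrocytes and WT microglia were compared with array as a random block. Adjusted p-values cover all genes tested (22395, or 22485 in astrocytes). The fit was tested on simulated data. The samples are biological replicates per the labels.

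The pairing by array comes from the labels. Same-array samples, centred within groups, had a median r of 0.47 over the 7 microglia arrays (0.37 to 0.63) and 0.23 over the 4 astrocyte arrays (0.00 to 0.50). Samples of different arrays had -0.20 and -0.12. Centring makes the deviations of a group cancel, so positive same-array values push those of different arrays to negative values by construction. Alternatives changed the block, dye term, normalization, probe rule, gene filter, prior, slides and replicates.

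The listed genes and other lists were chosen with earlier results of these data known. Genes were named by a rule: in each genotype comparison the called members, at most 14 by size, and 1 or more per step; for the difference of effects at most 8; of other lists at most 3 per comparison by adjusted p. The members outside these counts were given by their difference or its range. Matching arrays by Eif2s3y was chosen after seeing the data. Promoters were matched by symbol for 31 of 34 genes.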

Additional observations from a re-analysis of the deposited data

Results flagged for a closer look

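Among 124 sets of values, 1 per gene and group, 7 held a sample that stood apart from the rest of its group, and chance flags about 1 in 20 sets. In APP/PS1 astrocytes, replicate 3 was lowest for Pfkl (9.81) and highest for Pdk2 (11.76). In WT astrocytes, replicate 4 was highest for Hk2 (5.56), replicate 2 highest for Pdk1 (6.52) and replicate 1 lowest for Ldhb (15.61). In APP/PS1 microglia, replicate 2 was lowest for Pfkfb4 (10.66) and replicate 4 lowest for Eno3 (9.43).

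The genotype effect in astrocytes minus that in microglia passed the limma test for 22 genes. At uptake and hexokinase these were Slc2a1 (-1.98), Slc2a3 (-1.58) and Hk3 (0.90). Around phosphofructokinase they were Pfkl (-0.71), Pfkm (-1.05), Pfkfb2 (-0.74), Pfkfb3 (-1.44) and Pfkfb4 (-0.71). Without astrocyte replicate 1 or 4 the call was lost for Pfkfb2 (limma adjusted p = 0.0849 and 0.0725). The same held for Pfkfb4 (0.077 and 0.0626), whose call was also lost without replicate 2 (0.0564). The dimmer Pfkfb4 probe did not pass (-0.63, limma adjusted p = 0.131). Between aldolase and pyruvate kinase they were Aldoa (-1.01), Tpi1 (-2.12), Gapdh (-1.51), Pgk1 (-2.30), Pgam1 (-1.58) and Pkm (-0.89). At the pyruvate branch and shuttle they were Ldha (-0.69), Slc16a1 (-0.59), Slc16a3 (-1.21), Pdk2 (-0.76), Pdk4 (-1.12), Mpc1 (-1.02), Gpd1 (-1.07) and Gpd2 (-1.01). The dimmer Ldha probes did not pass here (-0.49 and -0.45, limma adjusted p = 0.0628 and 0.0792).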

How the results depend on the processing

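Under every alternative tried, the called genes of the list kept their sign, namely 19 of 19 in microglia, 18 of 18 in astrocytes and 22 of 22 for the difference of effects, and 10, 9 and 8 of them kept their call under every one. In the cell type contrast 21 of 28 kept their call. Leaving out 1 array at a time gave 17 to 20 calls in microglia, 14 to 18 in astrocytes, 19 to 23 for the difference of effects and 28 to 29 between cell types. The microglia count was 10 with only the 3 microglia arrays of slide 2 fitted beside the astrocyte arrays. The astrocyte count was 9 with each cell type fitted alone. The difference of effects had 12 calls with only the microglia arrays of slide 2. Without the array block that pairs the samples, the microglia count was 14, the astrocyte count 13 and that of the difference 12. In that unpaired fit the other pathway genes had 8 calls in each of the 3 comparisons. They had 6 and 3 in microglia on slides 1 and 2, and in astrocytes 11 with each cell type alone and 12 on arrays matched in Eif2s3y. Over all genes, the microglia count of 4403 became 1184 unpaired, 1425 on slide 1, 584 on slide 2 and 2263 on matched arrays. The astrocyte count of 7516 became 2447 unpaired, 2820 fitted alone and 3784 on matched arrays. The count for the difference of effects, 5952, became 1491 unpaired, 3345 on slide 1, 2191 on slide 2 and 3052 on matched arrays. The cell type count of 11924 became 7383 with slide as a random block. Set between APP/PS1 samples in place of WT samples, astrocytes minus microglia turned to -0.43 for Pfkl and -0.17 for Pgk1. Fewer samples entered the slide and matched settings, and for the others the cause was not tested. Signal over background is not known for this table, and low values, such as Hk2 and Hk3 in astrocytes, are the least certain.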
